A study of Mus musculus with 12 samples.

Results

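Head and trunk muscle progenitors of the mouse embryo were compared at embryonic day 11.5 (E11.5), with 2 arrays of head cells set against 2 arrays of trunk cells, 4 of the 12 arrays of a series that also covers E9.5 and E10.5. These 4 were taken by their titles, which give the tissue, the stage and the replicate, and the other 8 arrays entered only to estimate how far replicates spread. All embryos were of the ICR strain and of the genotype Myf5Cre;RosaYFP, in which a Cre recombinase made where Myf5 is active switches on a yellow fluorescent reporter (YFP) in those cells and in their descendants. Head or trunk tissue was dissected, brought into single-cell suspension and sorted for YFP by flow cytometry, and the RNA was amplified before hybridisation. The reporter marks a history of Myf5 activity and not the present state of a cell. In the trunk this Cre is known to label brown fat and part of the axial skeleton and dermis as well as muscle. The labels do not say how many embryos gave a sample or whether the 2 arrays of a group came from separate litters, so each p-value reflects how far these samples spread, which may be technical variation.

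Muscle of the trunk and limbs arises from somites, where the dermomyotome gives rise to myogenic cells under regulators such as Pax3 and the sclerotome forms the vertebrae and ribs. Muscle of the jaw, face and throat arises from cranial and pharyngeal mesoderm, where Tbx1, Isl1, Tcf21 (capsulin) and Msc (musculin, also called MyoR) act upstream of the same myogenic factors, Myf5 and Myod1. Hox genes mark position along the body axis behind the anterior hindbrain, and the mesoderm of the first pharyngeal arch lies in front of their domains. The comparison asks which of these programs still differed between the 2 populations once both were making muscle.

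The label of muscle progenitors was checked on the myogenic factors. Myf5 signal was 1787 and 1772 in head cells, against 1078 and 1261 in trunk cells, and Myod1 signal was 2156 and 2337 in head cells, against 1198 and 879 in trunk cells, all above the median probe set, which lay between 109.6 and 109.8 on the 4 arrays. Myog, the factor of myocyte differentiation, gave 1581 and 1318 in head cells, against 825 and 1127 in trunk cells. Pax3 gave 306 and 376 in head cells, against 512 and 639 in trunk cells, and Pax7, a factor of later muscle progenitors, gave 126 and 266 in head cells, against 175 and 179 in trunk cells. The acetylcholine receptor subunit Chrna1 gave 334 and 311 in head cells, against 311 and 179.6 in trunk cells. Desmin (Des), a muscle filament protein, was near or below the median, with 114.5 and 50.6 in head cells, against 73.0 and 40.8 in trunk cells, and was not tested. Myf6 lay below the median on each of the 4 arrays, with 6.62 and 8.40 in head cells, against 35.9 and 38.5 in trunk cells.

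Replicate arrays correlated at 0.960 in the head and 0.961 in the trunk over the probe sets that passed the filter on dim ones, against 0.939 to 0.951 between tissues. The log2 ratio of the 3′ to the 5′ control probe sets, a sign of RNA length after amplification, was 5.20 and 5.71 in head cells, against 5.72 and 5.39 in trunk cells for Actb. For Gapdh it was 5.85 and 5.58 in head cells, against 5.30 and 5.76 in trunk cells, so that the tissues overlapped in both. Every array had far more 3′ than 5′ signal for both controls. Whether this lowered dim readings, such as those of Des and Myf6, was not tested.

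Genes were tested with limma on the log2 signal, with an adjusted p (Benjamini-Hochberg) below 0.05 over 7722 genes as the threshold. In all, 160 genes (2.07%) passed, of which 55 (0.712%) were higher in head cells and 105 (1.36%) lower. The 2 head arrays lay on one side of both trunk arrays for each of the 160 genes, which was also true of 40.4% of all genes tested (higher in head cells in 21.9% of all genes and lower in 18.5%). At an unadjusted p below 0.05, 917 genes (11.9%) were counted, with 6.14% of all genes higher and 5.74% lower in head cells. The median log2 difference of all genes was 0.02, with a median standard error of 0.25. Fitted differences, head minus trunk, are given as log2 values ± SE with n = 2 arrays a tissue. The fold is the ratio of signals and is given as "at least" where the dimmer tissue had an array under the median probe set, which was then raised to that median. Of the 160 genes, 103 had a measured fold and 56 a bound. The fit was repeated without each of the 4 arrays in turn, which left 56 to 72 calls, and the genes that missed the threshold in such a fit are named with that value beside the results. Genes entered the test if a probe set was above the array median on at least 2 of the 12 arrays, so a gene that is dim in one tissue entered through other arrays. The lists were also chosen with earlier results of these data known. List medians and counts over tested genes, and their setting against all genes, are descriptions for both reasons. List calls are set against 0.712% higher and 1.36% lower, and list counts at an unadjusted p against 6.14% and 5.74%. For several lists the values over all members with a probe set are also given.

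**Figure D1:**
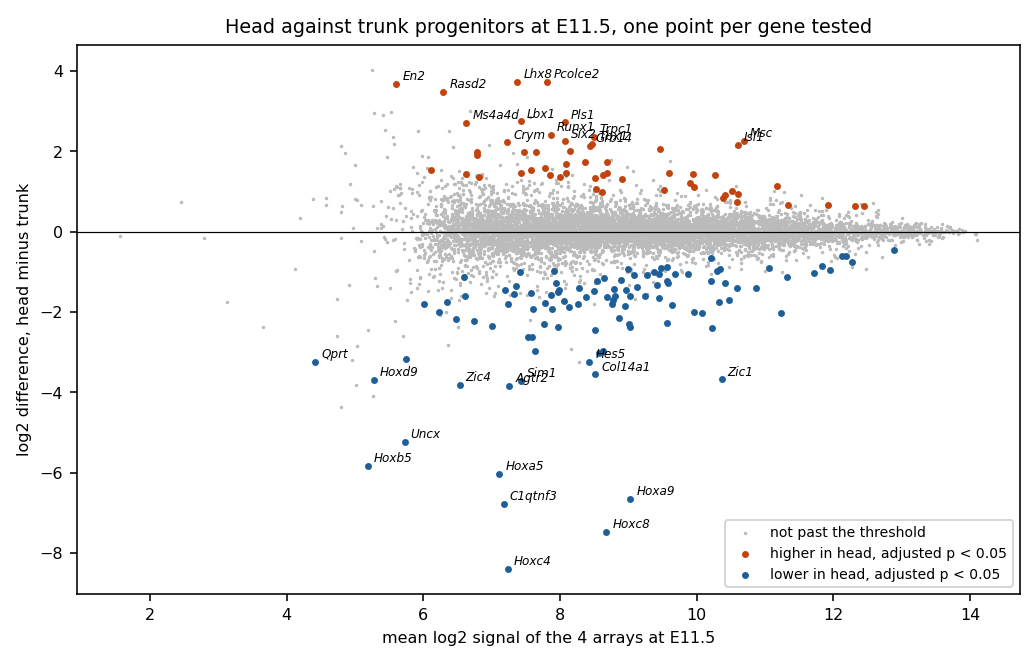
Log2 difference (head minus trunk, vertical axis) against the mean log2 signal of the 4 arrays at E11.5 (horizontal axis) for the 7722 genes tested. Orange points are the 55 genes higher in head cells and blue points the 105 lower ones, with the 15 most different of each side named. The blue points reach -8.40 (Hoxc4) and the orange ones 3.73 (Pcolce2).

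Listed regulators of pharyngeal mesoderm and of the muscles derived from it were mostly higher in head cells. The list also holds genes known from head or first-arch mesenchyme, such as Lhx8 and Six2. Of its 18 genes tested, 6 rose (Lhx8, En2, Msc, Six2, Tbx1 and Isl1), 1 fell (Ebf2) and 11 did not pass. Among all genes, 0.712% were called higher and 1.36% lower. The list had a median log2 difference of 2.05. With no filter on dim probe sets, 6 of 24 were higher, 1 was lower and the median was 1.15, and with 32 added to the signal 10 of 18 were higher with a median of 1.17. Tbx1, a T-box factor needed for the pharyngeal arches and their muscles, gave 774 and 742 in head cells, against 140.5 and 196 in trunk cells (2.19 ± 0.24, 4.56-fold higher, adjusted p = 0.000755). Both head arrays lay far above both trunk arrays. Isl1, a LIM homeodomain factor of second heart field and pharyngeal mesoderm, gave 3080.1 and 3502 in head cells, against 522 and 1025 in trunk cells (2.17 ± 0.30, 4.49-fold, adjusted p = 0.00373). Msc, a repressive bHLH factor of jaw muscle precursors, gave 3557 and 3662 in head cells, against 914 and 619 in trunk cells (2.26 ± 0.31, 4.80-fold, adjusted p = 0.00369). Trunk cells had Msc signal well above the median probe set.

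En2, a homeobox gene known from the midbrain border and from first-arch muscle, gave 149 and 204 in head cells, against 21.8 and 8.49 in trunk cells. Head cells were above the median probe set and trunk cells far below it (3.68 ± 0.53, at least 1.59-fold, adjusted p = 0.00414). Lhx8, a LIM homeobox gene of first-arch mesenchyme, gave 890.5 and 409 in head cells, against 45.3 and 45.9 in trunk cells (3.72 ± 0.74, at least 5.50-fold, adjusted p = 0.0258). Six2, a homeobox gene of head mesenchyme and kidney progenitors, gave 616 and 556 in head cells, against 108 and 139 in trunk cells (2.25 ± 0.31, at least 4.74-fold, adjusted p = 0.00373). Tbx1, Isl1, Msc and Six2 passed the threshold without any one of the 4 arrays. En2 missed it without head replicate 2 (adjusted p = 0.0534), and Lhx8 missed it without each of the 4 arrays in turn (adjusted p = 0.0706 to 0.181).

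Several regulators of the same list had large differences that missed the threshold. Tcf21, a bHLH factor that acts with Msc in jaw muscle, gave 521 and 488 in head cells, against 59.9 and 82.1 in trunk cells (2.85 ± 0.67, adjusted p = 0.0536). The homeobox gene Nkx2-5 gave 267 and 260.1 in head cells, against 68.3 and 51.5 in trunk cells (2.15 ± 0.52, adjusted p = 0.0613), and the helix-loop-helix factor Ebf1 gave 914 and 1086 in head cells, against 409.7 and 605 in trunk cells (1.001 ± 0.24, adjusted p = 0.0543). In each of the 3 the groups did not overlap. Lhx2 gave 109 and 103 in head cells, against 21.3 and 20.6 in trunk cells, so that each array lay below the median probe set and no fold is given (adjusted p = 0.126). Tlx1 was likewise dim, with 49.9 and 64.7 in head cells, against 11.4 and 18.8 in trunk cells (adjusted p = 0.302).

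The 3 Ebf genes tested differed in direction or size. Ebf2, a relative of Ebf1, fell, with 636 and 764 in head cells, against 2361 and 2335 in trunk cells (-1.75 ± 0.22, 3.37-fold lower, adjusted p = 0.00208), and it passed without any one of the 4 arrays. Ebf3 gave 2527 and 3549.7 in head cells, against 2931 and 2528 in trunk cells, with overlapping groups (0.14 ± 0.24, adjusted p = 0.921). Foxc1, a forkhead factor of head and somitic mesoderm, gave 262 and 493 in head cells, against 993 and 1132 in trunk cells (-1.56 ± 0.38, adjusted p = 0.0669). Without 1 of the 4 arrays, 4 or 5 genes of the list were higher and 1 lower.

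**Figure D2:**
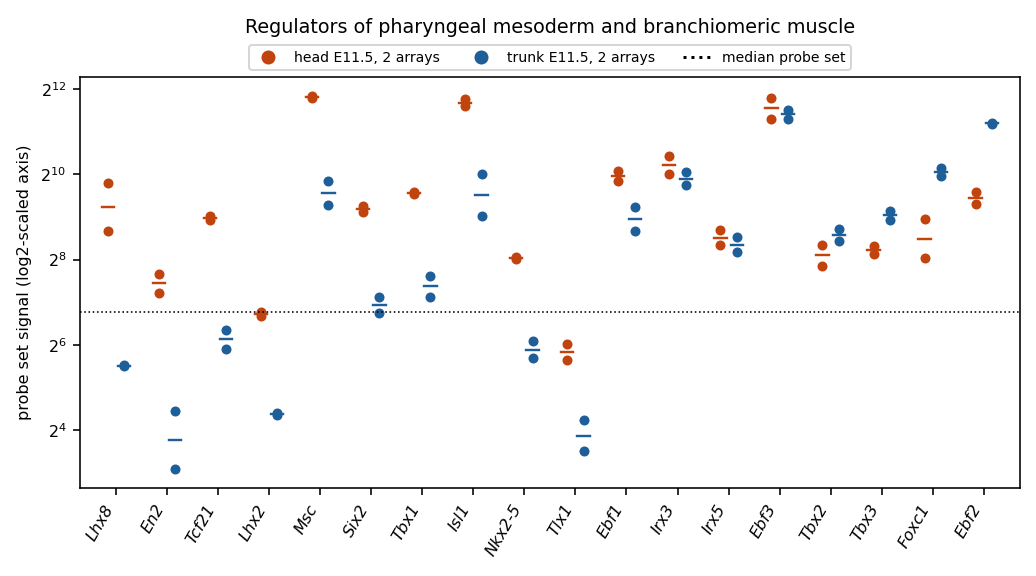
Signal on each array (log2-scaled axis) of the 18 pharyngeal regulators tested, ordered by their difference, with head arrays left (orange) and trunk arrays right (blue). Short bars are the geometric means of 2 arrays and the dotted line is the median probe set. Lhx8 and En2 stand at the left with the largest differences (3.72 and 3.68) and Ebf2 at the right (-1.75).

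Upstream windows are shown for Pcolce2 and Isl1, since they were the 2 of 11 leading genes higher in head cells with a RefSeq window that hold CAGCTG, the E-box bound by myogenic bHLH factors. The windows cover the 250 bases before the gene start in RefSeq's GRCm38.p6 annotation, 5′ to 3′ on the gene's strand, with CAGCTG in capitals. The Pcolce2 window lies at chr9:95637378-95637627 on the plus strand, with the E-box starting 119 bases before the gene start, and the Isl1 window lies at chr13:116309689-116309938 on the minus strand, with the E-box at 103 bases.
Pcolce2: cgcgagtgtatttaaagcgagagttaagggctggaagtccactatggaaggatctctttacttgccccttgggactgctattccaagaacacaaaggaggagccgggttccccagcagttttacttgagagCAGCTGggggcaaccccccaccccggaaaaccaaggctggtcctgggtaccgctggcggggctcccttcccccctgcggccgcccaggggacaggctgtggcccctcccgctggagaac
Isl1: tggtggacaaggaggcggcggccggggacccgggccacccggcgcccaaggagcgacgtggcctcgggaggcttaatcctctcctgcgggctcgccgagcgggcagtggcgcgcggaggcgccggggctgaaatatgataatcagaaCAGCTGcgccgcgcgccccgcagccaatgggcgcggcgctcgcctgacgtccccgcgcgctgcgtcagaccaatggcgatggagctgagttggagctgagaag
Shares were taken over genes with at least 1 window, and a gene counted if any of its windows held the motif. CAGCTG, which reads the same on both strands, was found in 14.6% of 41 such genes higher in head cells. It was found in 11.5% of 78 genes lower in head cells and 13.5% of 6288 genes among all tested. The general E-box CANNTG, which includes CAGCTG, was found in 68.3%, 59.0% and 60.4% of the same genes. On both strands, TGACAG, a short site of Meis factors, was found in 19.5%, 16.7% and 16.2%. The homeodomain core TAATTA was found in 4.88%, 2.56% and 2.81%, TGATTNAT, a site of Pbx with Hox, in 4.88%, 1.28% and 1.54%, and AGGTGTGA, a short T-box site, in 0.0%, 1.28% and 0.70%. These shares describe letters in the windows and no binding.

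Among the genes with the largest increase in head cells, Pcolce2, which enhances the trimming of procollagens, gave 872 and 767 in head cells, against 64.7 and 59.04 in trunk cells (3.73 ± 0.26, at least 7.46-fold, adjusted p = 4.48e-05). It had the smallest adjusted p of the genes higher in head cells. Pls1, an actin-bundling plastin, gave 706 and 669 in head cells, against 114 and 95.8 in trunk cells (2.72 ± 0.22, at least 6.15-fold, adjusted p = 0.000101). Runx1, a runt-domain factor best known from blood formation, gave 459 and 634 in head cells, against 108 and 94.9 in trunk cells (2.41 ± 0.28, at least 4.92-fold, adjusted p = 0.00111). The cation channel gene Trpc1 gave 579 and 1152 in head cells, against 128 and 198 in trunk cells (2.36 ± 0.33, 5.12-fold, adjusted p = 0.00394). These 4 genes passed the threshold without any one of the 4 arrays.

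Crym, a thyroid hormone-binding protein, gave 300.4 and 350.4 in head cells, against 46.01 and 105 in trunk cells (2.22 ± 0.37, at least 2.96-fold, adjusted p = 0.00983), and Grb14, an adaptor of the insulin receptor, gave 461 and 1134 in head cells, against 123 and 221 in trunk cells (2.13 ± 0.38, 4.38-fold, adjusted p = 0.0136). Ms4a4d, a membrane protein of the MS4A family, gave 386 and 165 in head cells, against 45.2 and 33.2 in trunk cells (2.70 ± 0.44, at least 2.30-fold, adjusted p = 0.00801). Rasd2, a small GTPase of the Ras family, gave 229 and 298 in head cells, against 16.1 and 34.2 in trunk cells (3.48 ± 0.75, at least 2.39-fold, adjusted p = 0.0363). Rasd2 missed the threshold without each of the 4 arrays (adjusted p = 0.0938 to 0.276) and without the filter on dim probe sets (log2 difference 0.55, adjusted p = 0.901), and Crym without head replicate 1, head replicate 2 or trunk replicate 1 (0.0536, 0.0871 and 0.0743). Grb14 missed it without head replicate 2 or trunk replicate 1 (0.104 and 0.131), and Ms4a4d without head replicate 1 or trunk replicate 2 (0.0775 and 0.0691).

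Regulators of the dermomyotome split in both directions. Of 17 tested, 4 fell (Sim1, Zic1, Tcf15 and Meox2), 2 rose (Cxcr4 and Lbx1) and 11 did not pass, with a median log2 difference of -0.18. Among all genes, 1.36% were called lower and 0.712% higher. Sim1, a bHLH-PAS factor of the lateral dermomyotome, gave 62.3 and 36.2 in head cells, against 636 and 604 in trunk cells (-3.71 ± 0.38, at least 5.65-fold lower, adjusted p = 0.000381). Zic1, a zinc finger factor of the dorsal somite and dorsal neural tube, gave 282 and 481 in head cells, against 4803 and 4634 in trunk cells (-3.68 ± 0.43, 12.8-fold, adjusted p = 0.00131). Head cells had Zic1 signal above the median probe set on both arrays, and trunk cells were far brighter. Tcf15 (paraxis), a bHLH factor needed for epithelial somites, gave 103 and 54.8 in head cells, against 691 and 305 in trunk cells (-2.61 ± 0.41, at least 4.18-fold, adjusted p = 0.00709), and the homeobox gene Meox2, which acts in limb muscle, gave 790.02 and 535 in head cells, against 1286 and 1427 in trunk cells (-1.06 ± 0.22, 2.08-fold, adjusted p = 0.0299).

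The 2 genes that rose are known from migrating muscle precursors. Lbx1, a homeobox gene required for myoblasts that migrate to the limb and tongue, gave 403 and 496 in head cells, against 51.7 and 85.5 in trunk cells (2.75 ± 0.62, at least 4.08-fold, adjusted p = 0.0461). Cxcr4, a chemokine receptor of migrating myoblasts, gave 785 and 717 in head cells, against 174 and 295 in trunk cells (1.73 ± 0.25, 3.31-fold, adjusted p = 0.00394). Met, the receptor for hepatocyte growth factor in the same precursors, gave 108 and 137 in head cells, against 89.3 and 32.3 in trunk cells (1.18 ± 0.53, adjusted p = 0.41) and did not pass. Sim1, Zic1 and Cxcr4 passed without any one of the 4 arrays. Lbx1 missed the threshold without each of them (adjusted p = 0.121 to 0.266), Tcf15 without head replicate 2 or trunk replicate 1 (0.0644 and 0.0679), and Meox2 without head replicate 2, trunk replicate 1 or trunk replicate 2 (0.228, 0.122 and 0.184).

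Pax3, the paired-box regulator of somitic muscle, had separate groups but did not pass (-0.75 ± 0.33, adjusted p = 0.399). Pax7 had overlapping groups (0.05 ± 0.59, adjusted p = 0.994). Meox1 gave 251 and 241 in head cells, against 435 and 805 in trunk cells (-1.27 ± 0.33, adjusted p = 0.0825), and Dmrt2, a target of Pax3 in the dermomyotome, gave 54.1 and 29.7 in head cells, against 147 and 290.2 in trunk cells (-2.37 ± 0.57, adjusted p = 0.0615). Both had groups that did not overlap, with trunk cells the brighter.

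Listed regulators of sclerotome and tendon were mostly lower in head cells. Of 8 tested, 4 fell (Uncx, Pax1, Twist1 and Foxc2), 0 rose and 4 did not pass, with a median of -1.58. Among all genes, 1.36% were called lower and 0.712% higher. At an unadjusted p below 0.05, 6 were lower and 1 higher, against 5.74% and 6.14% of all genes. The higher one was Ets2, with 1994 and 1729 in head cells, against 1136 and 1065 in trunk cells (0.76 ± 0.23, adjusted p = 0.162). Pax9 gave 86.4 and 122 in head cells, against 113 and 103 in trunk cells, with overlapping groups (-0.08 ± 0.33, adjusted p = 0.974). With no filter, 4 of 14 were lower and the median was -0.95, and 1 of 8 was lower without the intensity trend and 0 of 8 with only the arrays at E11.5. Pax1, a paired-box gene of the ventral sclerotome, gave 61.7 and 52.01 in head cells, against 425 and 196 in trunk cells (-2.35 ± 0.41, at least 2.63-fold lower, adjusted p = 0.0119). Uncx, a homeobox gene of the posterior sclerotome, gave 1.82 and 41.1 in head cells, against 275 and 382 in trunk cells (-5.23 ± 1.13, at least 2.95-fold, adjusted p = 0.0376), and its 2 head arrays were both dim but far apart. Twist1, a bHLH factor of mesenchyme, gave 338 and 263 in head cells, against 1239.7 and 669.7 in trunk cells (-1.61 ± 0.31, 3.05-fold, adjusted p = 0.0195), and Foxc2, a forkhead factor of sclerotome, gave 199 and 329 in head cells, against 1042 and 582 in trunk cells (-1.61 ± 0.34, 3.04-fold, adjusted p = 0.0346). In fits without 1 of the 4 arrays, between 0 and 3 of the list were lower. Pax1 missed the threshold without head replicate 1, head replicate 2 or trunk replicate 1 (0.0532, 0.085 and 0.126), as did Twist1 (0.0552, 0.149 and 0.161). Uncx missed it without head replicate 1, trunk replicate 1 or trunk replicate 2 (0.127, 0.15 and 0.199), and Foxc2 without head replicate 1 or trunk replicate 1 (0.203 and 0.26).

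Of 8 cartilage genes tested, 2 fell (Sox5 and Col11a1) and 0 rose, with a median of -0.91, and 7 had lower head arrays without overlap, against 18.5% of all genes. At an unadjusted p below 0.05, 5 were lower and 0 higher, against 5.74% and 6.14% of all genes. With no filter, 0 of 19 were called by limma in either direction and the median was -0.39. The chondrogenic factor Sox5 gave 46.04 and 42.5 in head cells, against 182 and 121 in trunk cells (-1.75 ± 0.39, at least 1.35-fold lower, adjusted p = 0.0402), and the cartilage collagen Col11a1 gave 306 and 221 in head cells, against 1080.4 and 813 in trunk cells (-1.85 ± 0.43, 3.60-fold, adjusted p = 0.049). Sox9, the main regulator of cartilage, gave 125 and 333 in head cells, against 432 and 380.3 in trunk cells (adjusted p = 0.31), and Col2a1 gave 585 and 793 in head cells, against 960.04 and 1139 in trunk cells (adjusted p = 0.553). Sox5 and Col11a1 missed the threshold without each of the 4 arrays (adjusted p = 0.104 to 0.304 and 0.102 to 0.285). In such bulk samples, fewer cells of a type and less RNA per cell cannot be told apart.

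Hox genes were lower in head cells and made up 6 of the 15 leading genes of that side (Hoxc4, Hoxc8, Hoxa9, Hoxa5, Hoxb5 and Hoxd9). Of 18 Hox genes tested, 7 fell, 0 rose and 17 had head arrays below both trunk arrays. Among all genes, 1.36% were called lower and 18.5% were lower without overlap. Of the 18, 13 had both head arrays below the median probe set and 1 had both trunk arrays below it. Those 13 entered the test through other arrays, so the filter bears on the direction of the Hox counts, which are descriptions. Among paralog groups 5 to 13, 5 of 10 fell, with a median of -4.03, and all 10 were lower at an unadjusted p below 0.05, against 5.74% of all genes. The tested members are those that were bright on some arrays, and with no filter 6 of 22 of these groups were lower and the median was -1.29. With 32 added to the signal the median of the 10 was -2.03. Among groups 1 to 4, 2 of 8 fell, with a median of -1.33, and 6 were lower at an unadjusted p below 0.05. With no filter, 2 of 9 were lower and the median was -1.23.

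Hoxc4 gave 15.7 and 4.31 in head cells, against 3078 and 2492 in trunk cells (-8.40 ± 0.61, at least 25.2-fold lower, adjusted p = 4.48e-05). Hoxc8 gave 63.6 and 14.9 in head cells, against 5521 and 5358 in trunk cells (-7.47 ± 0.75, at least 49.6-fold, adjusted p = 0.000381), and Hoxa9 gave 81.5 and 33.3 in head cells, against 5585 and 4887 in trunk cells (-6.65 ± 0.56, at least 47.6-fold, adjusted p = 0.000101). In these 3 genes trunk signal was far above the median probe set and head signal below it on both arrays, so the folds are lower bounds. Hoxa5 gave 24.8 and 11.8 in head cells, against 986 and 1259 in trunk cells (-6.02 ± 0.60, at least 10.2-fold, adjusted p = 0.000381), and Hoxb5 gave 4.24 and 5.54 in head cells, against 250.1 and 304 in trunk cells (-5.83 ± 0.83, at least 2.51-fold, adjusted p = 0.00404). All of these passed without any one of the 4 arrays.

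Hoxd9 gave 14.96 and 7.77 in head cells, against 194 and 99.96 in trunk cells (-3.69 ± 0.78, at least 1.27-fold, adjusted p = 0.034), and Hoxb4 gave 16.6 and 19.1 in head cells, against 159 and 162 in trunk cells (-3.17 ± 0.66, at least 1.46-fold, adjusted p = 0.0324). Both missed the threshold without each of the 4 arrays (adjusted p = 0.0712 to 0.26 and 0.126 to 0.172). The other 11 Hox genes tested did not pass. Hoxa2 gave 139.6 and 130.1 in head cells, against 191 and 345 in trunk cells (adjusted p = 0.272), Hoxb2 gave 119 and 82.8 in head cells, against 151 and 212 in trunk cells (adjusted p = 0.461), and Hoxa3 gave 108 and 91.9 in head cells, against 230.3 and 235 in trunk cells (adjusted p = 0.0667). Hoxb3 gave 91.5 and 86.7 in head cells, against 233 and 247 in trunk cells (adjusted p = 0.0741). Hoxd1 was the member with overlapping groups, with 219 and 209 in head cells, against 248 and 159 in trunk cells (0.10 ± 0.30, adjusted p = 0.965), and Hoxb1 lay below the median on each array (-1.67 ± 0.43, adjusted p = 0.0749). In groups 5 to 13, Hoxb6 gave 49.2 and 72.95 in head cells, against 138 and 153 in trunk cells (-1.28 ± 0.39, adjusted p = 0.157), Hoxc6 gave 97.5 and 61.8 in head cells, against 192 and 263 in trunk cells (-1.54 ± 0.54, adjusted p = 0.241), and Hoxd8 gave 130.1 and 86.5 in head cells, against 323 and 315 in trunk cells (-1.59 ± 0.66, adjusted p = 0.367). Hoxa7 gave 6.85 and 5.46 in head cells, against 112 and 143.7 in trunk cells (-4.38 ± 1.15, adjusted p = 0.0864), and Hoxc9 gave 171 and 45.7 in head cells, against 308 and 533 in trunk cells (-2.19 ± 0.87, adjusted p = 0.325). All 5 had head arrays below both trunk arrays.

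Of 4 Hox cofactors of the Meis and Pbx families tested, 1 fell, Meis1, with 816 and 348 in head cells, against 1921 and 2467 in trunk cells (-2.03 ± 0.37, 4.08-fold lower, adjusted p = 0.0141). The list had a median of -0.09. Meis1 encodes a TALE homeodomain protein that binds DNA together with Hox proteins. It missed the threshold without head replicate 2, trunk replicate 1 or trunk replicate 2 (0.0995, 0.0612 and 0.12).

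**Figure D3:**
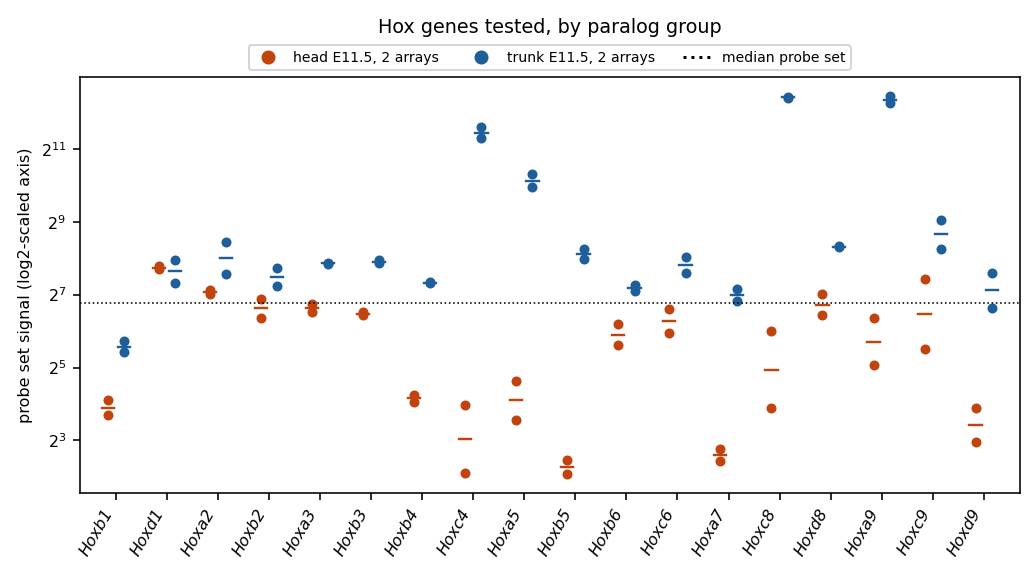
Signal on each array (log2-scaled axis) of the 18 Hox genes tested, ordered by paralog number, with head arrays left (orange) and trunk arrays right (blue). Short bars are geometric means of 2 arrays and the dotted line is the median probe set. For 17 genes both blue points lie above both orange points, and the gaps are widest at Hoxc4, Hoxc8 and Hoxa9.

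No listed myogenic factor or cofactor passed the threshold, which does not show that the 2 tissues were equal. Of 16 myogenic factors and cofactors tested with limma, 0 rose and 0 fell, with a median of 0.11, while at an unadjusted p below 0.05, 4 were higher and 2 lower, against 6.14% and 5.74% of all genes. Myod1 was 2.19-fold higher in head cells without overlap but did not pass (1.13 ± 0.30, adjusted p = 0.0954). Myf5 (0.61 ± 0.21, adjusted p = 0.215) and Myog (0.58 ± 0.36, adjusted p = 0.612) also had head arrays above both trunk arrays without passing. Sox6, a repressor of slow fibre genes, gave 156 and 209.6 in head cells, against 322 and 316 in trunk cells (-0.82 ± 0.22, adjusted p = 0.0987). Over the alternatives the adjusted p of Myod1 ran between 0.0453, with 32 added to the signal, and 0.441, without trunk replicate 2.

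Of 22 myosin, troponin, tropomyosin and actin genes tested, 1 rose and 0 fell, with a median of -0.44; at an unadjusted p below 0.05, 2 were higher and 2 lower, against 6.14% and 5.74% of all genes. Tpm2, a tropomyosin, gave 2164 and 2113 in head cells, against 1322 and 952 in trunk cells (0.93 ± 0.19, 1.91-fold higher, adjusted p = 0.0308), and missed the threshold without head replicate 1, head replicate 2 or trunk replicate 2 (0.126, 0.141 and 0.241). Its probe set carries a name suffix for probes shared by several transcripts, and without probe sets with such suffixes the adjusted p was 0.803. The skeletal actin Acta1 gave 502 and 188 in head cells, against 1248 and 772 in trunk cells (adjusted p = 0.167), and the cardiac actin Actc1, the main actin of embryonic muscle, gave 7883 and 7491 in head cells, against 8272 and 6686 in trunk cells (adjusted p = 0.989). The embryonic myosin Myh3 gave 2381 and 1678 in head cells, against 4519 and 2317 in trunk cells (adjusted p = 0.912), the slow myosin Myh7 241 and 182 in head cells, against 816 and 314 in trunk cells (adjusted p = 0.315), and the slow troponin Tnni1 203 and 127 in head cells, against 454 and 254 in trunk cells (adjusted p = 0.49). In Acta1, Myh3, Myh7 and Tnni1 the replicates of a tissue differed widely, with replicate 1 the brighter in both tissues.

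Of 12 Z-disc, scaffold and membrane proteins of muscle, 1 fell and 0 rose, with a median of -0.11. Dmd, which encodes dystrophin, the link between actin and the membrane complex, gave 159 and 116 in head cells, against 438 and 377 in trunk cells (-1.58 ± 0.22, 2.999-fold lower, adjusted p = 0.00394), and passed without any one of the 4 arrays. Of 12 acetylcholine receptor and calcium handling genes, limma called 0 in either direction, with a median of 0.13, and at an unadjusted p below 0.05, 2 were higher and 0 lower.

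**Figure D4:**
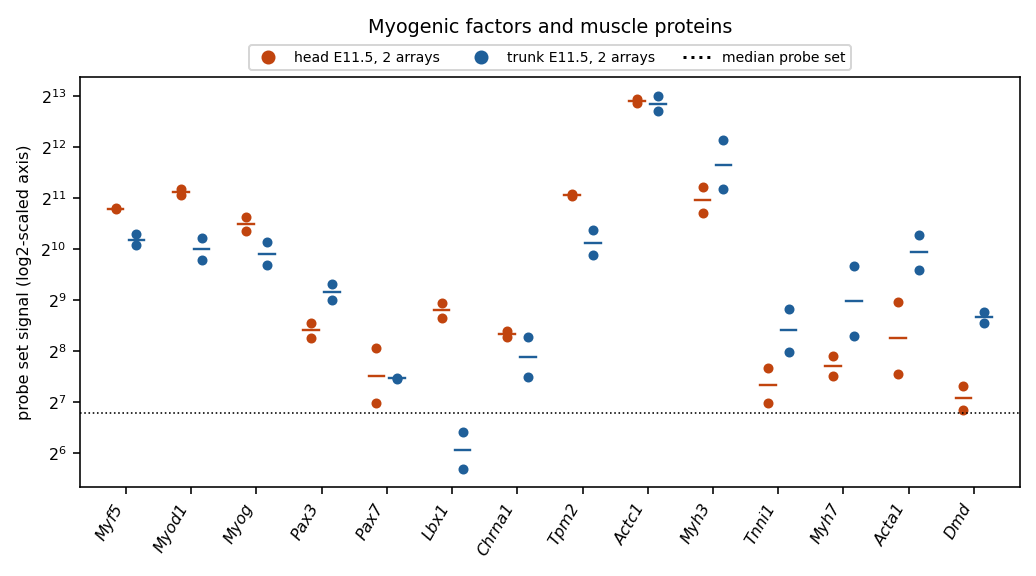
Signal on each array (log2-scaled axis) of 14 myogenic factors and muscle proteins, with head arrays left (orange) and trunk arrays right (blue). Short bars are geometric means of 2 arrays and the dotted line is the median probe set. Lbx1 and Tpm2 are higher and Dmd lower in head cells at an adjusted p below 0.05, and the other 11 did not pass.

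Connective tissue and extracellular matrix genes were lower in head cells. Of 36 tested, 9 fell (Col14a1, Postn, Lum, Dcn, Pdgfra, Tnc, Pdgfrb, Dlk1 and Col5a1) and 0 rose, with a median of -0.62; 23 had head arrays below both trunk arrays, against 18.5% of all genes. At an unadjusted p below 0.05, 15 were lower and 0 higher, against 5.74% and 6.14% of all genes. With no filter 5 of 42 were lower, and without the intensity trend 5 of 36. Summed over the list, the signal was 30724 and 32395 in head cells, against 53433 and 52179 in trunk cells. Col14a1, a collagen that associates with fibrils, gave 110.3 and 104 in head cells, against 1170.4 and 1344 in trunk cells (-3.55 ± 0.30, at least 11.4-fold lower, adjusted p = 0.000101). Periostin (Postn), a matrix protein of mesenchyme, gave 498 and 493 in head cells, against 2249.9 and 1767 in trunk cells (-2.01 ± 0.24, 4.02-fold, adjusted p = 0.00136). Both passed without any one of the 4 arrays.

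The small leucine-rich proteoglycans that bind collagen fibrils were also lower. Dcn gave 161 and 150.3 in head cells, against 828 and 875 in trunk cells (-2.45 ± 0.43, 5.46-fold, adjusted p = 0.0123), and Lum gave 203 and 266 in head cells, against 1137 and 1160.04 in trunk cells (-2.31 ± 0.37, 4.95-fold, adjusted p = 0.00769). Fmod gave 115 and 93.9 in head cells, against 804 and 771 in trunk cells (-2.92 ± 0.81, adjusted p = 0.108) and did not pass. The PDGF receptors, which mark mesenchymal cells, fell by 1.40 (Pdgfra, with 1335 and 985 in head cells, against 3243 and 2827 in trunk cells, adjusted p = 0.0233) and by 1.05 (Pdgfrb, with 628 and 514 in head cells, against 1042 and 1335 in trunk cells, adjusted p = 0.0442) on the log2 scale. Tenascin C (Tnc) gave 123 and 119 in head cells, against 481 and 442 in trunk cells (3.80-fold, adjusted p = 0.0395). Col3a1, a fibrillar collagen, gave 4166 and 4107 in head cells, against 8477 and 7397 in trunk cells and did not pass (adjusted p = 0.101).

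Without 1 of the 4 arrays, 2 or 3 matrix genes were lower. Dcn, Tnc, Pdgfrb, Dlk1 and Col5a1 missed the threshold without each array (adjusted p = 0.0656 to 0.0966, 0.147 to 0.228, 0.0901 to 0.296, 0.0705 to 0.31 and 0.145 to 0.233), and Lum without head replicate 1, trunk replicate 1 or trunk replicate 2 (0.0617, 0.0555 and 0.0529). Pdgfra missed it without head replicate 2, trunk replicate 1 or trunk replicate 2 (0.186, 0.158 and 0.0986). Of 23 integrin, laminin and basement membrane genes, 1 fell (Col4a5) and 0 rose, with a median of -0.06. Among all genes, 1.36% were called lower and 0.712% higher. Col4a5 gave 297 and 404 in head cells, against 1277 and 867 in trunk cells (3.04-fold lower, adjusted p = 0.00679). Col4a5, a basement membrane collagen, missed the threshold without head replicate 1 or trunk replicate 1 (0.0581 and 0.0735).

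Of the secreted growth factors listed, Igf1, Gdf10 and Bmp5 were lower in head cells. Igf1, which promotes growth of muscle and other tissues, gave 1439 and 997 in head cells, against 5462 and 4345 in trunk cells (-2.02 ± 0.23, 4.07-fold lower, adjusted p = 0.000984), and passed without any one of the 4 arrays. Of 18 IGF and PDGF genes, 3 fell (Igf1 and both PDGF receptors) and 0 rose, with a median of 0.02. These calls stand against 1.36% lower and 0.712% higher among all genes, and both receptors were also counted among the matrix genes. By limma, 5 were higher and 4 lower at an unadjusted p below 0.05, against 6.14% and 5.74% of all genes. Of 27 BMP and TGF-beta genes, 2 fell and 0 rose, with a median of -0.23, against the same shares of all genes. At an unadjusted p below 0.05, 1 was higher and 7 lower. Gdf10, a BMP family ligand, gave 54.5 and 111 in head cells, against 538 and 427 in trunk cells (-2.62 ± 0.42, at least 4.34-fold lower, adjusted p = 0.00762), and Bmp5 gave 49.2 and 64.1 in head cells, against 196 and 149 in trunk cells (-1.60 ± 0.35, at least 1.56-fold, adjusted p = 0.0389). The ligands Bmp4, with 199 and 153 in head cells, against 368 and 458 in trunk cells (adjusted p = 0.145), and Bmp2, with 179.5 and 224 in head cells, against 458 and 505 in trunk cells (adjusted p = 0.0682), had groups that did not overlap but did not pass. Bmp5 missed the threshold without each of the 4 arrays (adjusted p = 0.104 to 0.26), and Gdf10 without head replicate 1 or trunk replicate 1 (0.0603 and 0.0857).

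Of 27 Wnt pathway genes, 1 fell, Dkk2, and 0 rose, with a median of -0.26. Among all genes, 1.36% were called lower and 0.712% higher. Dkk2, a secreted modulator of Wnt receptors, gave 226 and 236 in head cells, against 894 and 725 in trunk cells (-1.80 ± 0.34, 3.48-fold lower, adjusted p = 0.0207), and missed the threshold without each of the 4 arrays (adjusted p = 0.0853 to 0.156). The ligand Wnt5a gave 463 and 274 in head cells, against 712 and 715 in trunk cells (adjusted p = 0.0698). Of 22 Notch genes, 3 fell (Dll3, Hes5 and Dlk1) and 0 rose, with a median of 0.03. Dll3, a ligand of the segmenting mesoderm, gave 29.5 and 40.1 in head cells, against 111 and 131 in trunk cells (-1.81 ± 0.31, at least 1.10-fold, adjusted p = 0.0102), and Hes5, a Notch target that is also on the neural progenitor list, gave 64.9 and 194 in head cells, against 807 and 1386 in trunk cells (-3.24 ± 0.70, at least 7.25-fold, adjusted p = 0.0363). Dll3 missed the threshold without head replicate 1, trunk replicate 1 or trunk replicate 2 (0.0712, 0.0605 and 0.104), as did Hes5 (0.212, 0.111 and 0.222). Dlk1, an imprinted gene related to Notch ligands, gave 239 and 149.7 in head cells, against 552 and 625 in trunk cells (3.11-fold, adjusted p = 0.0472).

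No gene of the FGF (11), Hedgehog (10) or retinoic acid (13) lists was called by limma. At an unadjusted p below 0.05, 1 FGF gene was higher and 1 lower, 2 Hedgehog genes were higher and 1 lower, and 1 retinoic acid gene was higher and 3 lower, where 6.14% of all genes were higher and 5.74% lower. Ptch1, the Hedgehog receptor and target, gave 4052 and 5161 in head cells, against 3143 and 3189 in trunk cells (0.53 ± 0.17, adjusted p = 0.169), and the co-receptor Boc gave 174 and 246 in head cells, against 479 and 469 in trunk cells (-1.20 ± 0.31, adjusted p = 0.0789). Aldh1a2, which makes retinoic acid, gave 311 and 121 in head cells, against 549.9 and 838 in trunk cells (-1.81 ± 0.77, adjusted p = 0.38), and the binding protein Crabp1 gave 91.97 and 63.5 in head cells, against 157 and 262 in trunk cells (-1.41 ± 0.37, adjusted p = 0.0848). The groups did not overlap in any of these 4 genes. The FGF receptor Fgfr4, found in muscle progenitors, gave 613 and 728 in head cells, against 337 and 337 in trunk cells (adjusted p = 0.367).

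Guidance genes were called in both directions but were more often lower in head cells, and a chemokine and its receptor moved oppositely. Of 30 tested, 2 rose (Cxcr4 and Plxnd1) and 4 fell (Ntn1, Cxcl12, Epha3 and Slit3), with a median of -0.42. These calls stand against 0.712% higher and 1.36% lower among all genes. By limma, 3 were higher and 12 lower at an unadjusted p below 0.05, against 6.14% and 5.74% of all genes. Head arrays were separate and higher in 7 and separate and lower in 16, against 21.9% and 18.5% of all genes. Cxcl12, the ligand of Cxcr4, gave 816 and 729 in head cells, against 1625 and 2024 in trunk cells (-1.23 ± 0.18, 2.35-fold lower, adjusted p = 0.00437), where Cxcr4 had a difference of 1.73. Netrin 1 (Ntn1), a secreted guidance cue, gave 107 and 168 in head cells, against 1313 and 898 in trunk cells (-3.02 ± 0.36, at least 8.01-fold, adjusted p = 0.00136) and passed without any one of the 4 arrays. The receptor Epha3 gave 525 and 508 in head cells, against 2594 and 2910.3 in trunk cells (-2.41 ± 0.45, 5.32-fold, adjusted p = 0.0185), and the ligand Slit3 gave 24.9 and 56.5 in head cells, against 158 and 140.1 in trunk cells (-1.99 ± 0.44, at least 1.36-fold, adjusted p = 0.0405). Plxnd1, a semaphorin receptor of blood vessels, gave 423 and 291 in head cells, against 119.8 and 66.9 in trunk cells (1.97 ± 0.36, at least 3.06-fold higher, adjusted p = 0.0159).

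Cxcl12 missed the threshold without trunk replicate 2 (0.0529), Epha3 without each of the 4 arrays (0.0801 to 0.12), Slit3 without head replicate 1, trunk replicate 1 or trunk replicate 2 (0.219, 0.228 and 0.179), and Plxnd1 without head replicate 1 or trunk replicate 2 (0.117 and 0.141). Of 14 cadherin and adhesion genes limma called 0, with a median of -0.46. At an unadjusted p below 0.05, 2 were higher and 7 lower, against 6.14% and 5.74% of all genes.

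Cell division genes had close to equal signal. Of 36 cell cycle genes, 1 fell and 0 rose, with a median of 0.05, against 1.36% lower and 0.712% higher among all genes. At an unadjusted p below 0.05, 1 was higher and 1 lower, against 6.14% and 5.74% of all genes. The exception was the D-type cyclin Ccnd2, with 4094 and 3534 in head cells, against 7202 and 5791 in trunk cells (-0.76 ± 0.12, 1.70-fold lower, adjusted p = 0.00687), which missed the threshold without head replicate 2 or trunk replicate 1 (0.0642 and 0.0767). Of 14 inhibitors of cell division limma called 0, with a median of 0.03, and at an unadjusted p below 0.05, 1 was higher and 0 lower. The 25 hypoxia and glycolysis genes had a median of 0.02. Against 0.712% higher and 1.36% lower among all genes, 0 of them fell and 1 rose. It was the oxygen sensor Egln3, with 546 and 514 in head cells, against 259 and 252 in trunk cells (1.06 ± 0.21, 2.08-fold higher, adjusted p = 0.0247), which missed the threshold without each of the 4 arrays (0.113 to 0.145). Of 21 immediate early and heat shock genes, which can respond to cell isolation, limma called 0, with a median of 0.37, and at an unadjusted p below 0.05, 4 were higher and 0 lower, against 6.14% and 5.74% of all genes.

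Of 17 imprinted growth genes, 3 fell (Dcn, Mest and Dlk1) and 0 rose, with a median of -0.23. These calls stand against 1.36% lower and 0.712% higher among all genes. By limma, 6 were lower and 1 higher at an unadjusted p below 0.05, against 5.74% and 6.14% of all genes. Dcn and Dlk1 were also counted among the matrix genes. Mest gave 6738 and 6150.1 in head cells, against 9026 and 8634 in trunk cells (-0.46 ± 0.10, 1.37-fold lower, adjusted p = 0.039). Of the called genes with a measured fold its ratio was the smallest. Mest and Dlk1 missed the threshold without each of the 4 arrays (adjusted p = 0.0775 to 0.238 and 0.0705 to 0.31), as did Dcn (0.0656 to 0.0966).

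Markers of other cell types were examined in the same fit, since a sort for the reporter can hold them. Endothelial genes were brighter in head cells. Of 24 tested, 4 rose (Flt4, Kdr, Cldn5 and Sox17) and 0 fell, with a median of 1.07, and 19 had head arrays above both trunk arrays, against 21.9% of all genes. At an unadjusted p below 0.05, 15 were higher and 1 lower, against 6.14% and 5.74% of all genes. With no filter limma called 0 of 27 (median 1.02), and it called 0 of 24 without the intensity trend or with only the arrays at E11.5. Their summed signal was 8052 and 5000 in head cells, against 3521 and 2128 in trunk cells, so replicate 1 was the higher in each tissue. Kdr, a receptor for vascular endothelial growth factor, gave 789 and 461 in head cells, against 282 and 116 in trunk cells (1.74 ± 0.39, 3.33-fold higher, adjusted p = 0.0445), and Flt4, a related receptor, gave 693 and 343 in head cells, against 148 and 159 in trunk cells (1.67 ± 0.35, 3.19-fold, adjusted p = 0.0331). Cldn5, a tight junction protein of vessels, gave 509 and 330.4 in head cells, against 182 and 142 in trunk cells (2.55-fold, adjusted p = 0.0472), the factor Sox17 gave 692 and 469 in head cells, against 189 and 105 in trunk cells (at least 3.96-fold, adjusted p = 0.0498), and the cadherin Cdh5 gave 345 and 179.5 in head cells, against 112 and 54.5 in trunk cells (adjusted p = 0.0672).

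The part of endothelial signal in the other genes higher in head cells was not tested. Between 0 and 2 endothelial genes were called without 1 of the 4 arrays. Cldn5 and Sox17 missed the threshold without each of them (0.0682 to 0.284 and 0.0926 to 0.315), Flt4 without head replicate 1, trunk replicate 1 or trunk replicate 2 (0.208, 0.172 and 0.139), and Kdr without head replicate 1, head replicate 2 or trunk replicate 2 (0.243, 0.0651 and 0.299).

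Macrophage and leukocyte genes had a median of 1.10, with 0 of 10 called by limma, 4 higher and 0 lower at an unadjusted p below 0.05, and 7 with separate, higher head arrays, against 6.14%, 5.74% and 21.9% of all genes. Their summed signal was 3441 and 2271 in head cells, against 1796 and 1129 in trunk cells. The macrophage marker Adgre1 gave 301 and 352 in head cells, against 141 and 139.6 in trunk cells (adjusted p = 0.0721), the receptor Csf1r 780.3 and 549.8 in head cells, against 239.6 and 303 in trunk cells (adjusted p = 0.364), and Laptm5 549.7 and 355 in head cells, against 203 and 139 in trunk cells (adjusted p = 0.0552). Epithelial genes had a median of 0.75, with 0 of 22 called by limma. Head arrays were separate and higher in 14 and separate and lower in 1, against 21.9% and 18.5% of all genes. At an unadjusted p below 0.05, 11 were higher and 0 lower, against 6.14% and 5.74% of all genes. The epithelial sum was 4345 and 4675 in head cells, against 3433 and 2307 in trunk cells. Epcam, the epithelial adhesion molecule, gave 244 and 284 in head cells, against 178 and 155 in trunk cells (adjusted p = 0.145), and Cdh1 gave 228 and 221 in head cells, against 176 and 77.2 in trunk cells (adjusted p = 0.254). Of 6 erythroid genes limma called 0 and none reached an unadjusted p of 0.05. The embryonic globin Hbb-y gave 13438 and 7694 in head cells, against 14075 and 10311 in trunk cells, and Hbb-bh1 gave 4849 and 639 in head cells, against 2505 and 1174 in trunk cells, both with overlapping groups.

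Neural markers differed by class. Neuronal genes had a median of 0.64, with 1 of 24 higher (Neurod1) and 0 lower, 6 higher and 2 lower at an unadjusted p below 0.05, and 14 with separate, higher head arrays, against 6.14%, 5.74% and 21.9% of all genes. Their sum was 19768 and 32837 in head cells, against 16714 and 19291 in trunk cells. The part of neuronal signal in other genes higher in head cells, such as Isl1, was not tested. The neurogenic factor Neurod1 gave 502 and 828 in head cells, against 268 and 219.9 in trunk cells (1.41 ± 0.29, 2.65-fold higher, adjusted p = 0.0282), and missed the threshold without head replicate 2, trunk replicate 1 or trunk replicate 2 (0.22, 0.103 and 0.184). The neurofilament gene Prph gave 191 and 441 in head cells, against 32.5 and 40.9 in trunk cells (adjusted p = 0.121), the growth cone gene Stmn2 361 and 671 in head cells, against 175 and 269 in trunk cells (adjusted p = 0.248), and Tubb3 280.5 and 386 in head cells, against 136 and 214 in trunk cells (adjusted p = 0.587). The proneural factor Neurog2 ran the other way, with 17.1 and 55.8 in head cells, against 214 and 227 in trunk cells (adjusted p = 0.0769).

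Of 10 neural progenitor genes tested, 4 were called lower in head cells (Zic1, Sox2, Fabp7 and Hes5) and 0 higher, with a median of -1.23. The difference was negative in 6 of the 10 and positive in 4, up to 0.725. Among all genes, 1.36% were called lower and 0.712% higher. At an unadjusted p below 0.05, 5 were lower and 0 higher, against 5.74% and 6.14% of all genes. With no filter, 4 of 17 were lower and the median was -0.26, and without the intensity trend 2 of 10 were lower. Their sum was 2651 and 4144 in head cells, against 9094 and 10796 in trunk cells. Sox2, a factor of neural stem cells, gave 149 and 150.03 in head cells, against 415 and 428 in trunk cells (-1.49 ± 0.25, 2.82-fold lower, adjusted p = 0.0102), and Fabp7, a lipid-binding protein of radial glia, gave 265 and 196 in head cells, against 1397 and 1004 in trunk cells (-2.38 ± 0.50, 5.20-fold, adjusted p = 0.0328). Both missed the threshold without each of the 4 arrays (0.0617 to 0.0771 and 0.0868 to 0.202). Zic1 is on both this list and that of the dermomyotome, and the part of neural signal in its difference was not tested.

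Neural crest and ectomesenchyme genes were mixed. Of 20 tested, 2 rose (Dlx2 and Erbb3) and 1 fell (Twist1), with a median of 0.34. These calls stand against 0.712% higher and 1.36% lower among all genes. By limma, 6 were higher and 4 lower at an unadjusted p below 0.05, against 6.14% and 5.74% of all genes. Head arrays were separate and higher in 8 and separate and lower in 5, against 21.9% and 18.5% of all genes. Dlx2, a homeobox gene of arch mesenchyme, gave 159 and 165 in head cells, against 63.1 and 57.4 in trunk cells (1.43 ± 0.30, at least 1.48-fold higher, adjusted p = 0.0308), and Erbb3, the neuregulin receptor of crest and glia, gave 3171 and 3669 in head cells, against 1633 and 1501 in trunk cells (1.12 ± 0.24, 2.18-fold, adjusted p = 0.0376). Both missed the threshold without each of the 4 arrays (0.126 to 0.186 and 0.0971 to 0.229). Some other homeobox genes of arch mesenchyme had separate groups, with head cells the brighter, without passing. Dlx5 gave 147 and 92.1 in head cells, against 9.08 and 26.8 in trunk cells (adjusted p = 0.11), Barx1 255 and 152 in head cells, against 35.5 and 33.9 in trunk cells (adjusted p = 0.23), and Prrx2 412 and 355 in head cells, against 162 and 152 in trunk cells (adjusted p = 0.0579). Of 5 cardiac genes tested, 1 rose, Isl1, which is also on the pharyngeal list, and 0 fell, with a median of -0.13.

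**Figure D5:**
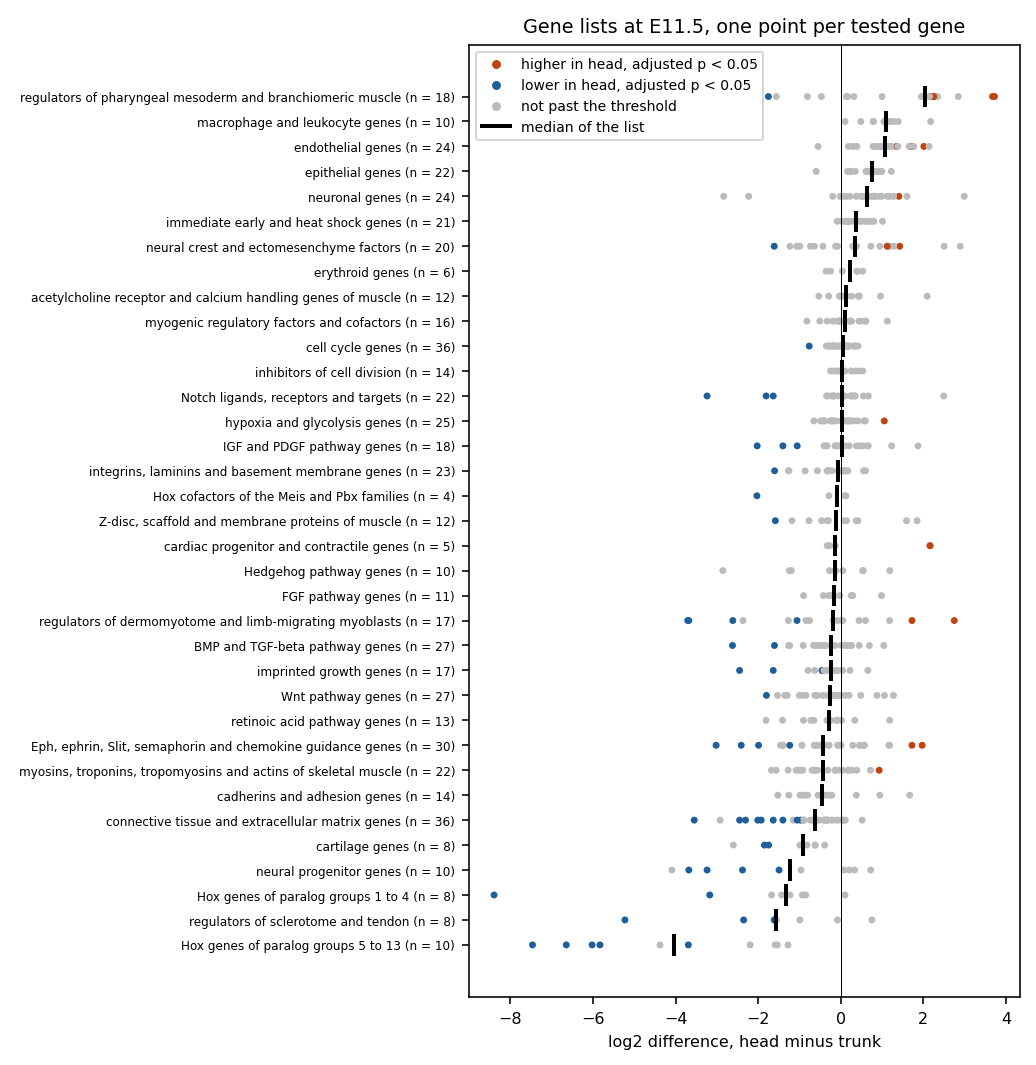
Log2 difference (head minus trunk) of each tested gene in 35 gene lists, ordered by the list's median (black bar), with called genes in orange (higher in head) and blue (lower in head). Over the tested genes shown, pharyngeal regulators have the highest median (2.05) and Hox genes of paralog groups 5 to 13 the lowest (-4.03). With no filter on dim probe sets these medians are 1.15 and -1.29.

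The other leading genes lower in head cells came from several classes. C1qtnf3, a secreted protein of the C1q and TNF family, gave 12.2 and 15.7 in head cells, against 1419 and 1609.5 in trunk cells (-6.77 ± 0.68, at least 13.8-fold lower, adjusted p = 0.000381), with trunk cells bright and head cells far below the median probe set. The angiotensin receptor Agtr2 gave 47.4 and 34.6 in head cells, against 577 and 582 in trunk cells (-3.84 ± 0.74, at least 5.28-fold, adjusted p = 0.0221). Zic4, a neighbour of Zic1 in the genome, gave 13.1 and 46.4 in head cells, against 361 and 331 in trunk cells (-3.81 ± 0.78, at least 3.15-fold, adjusted p = 0.03). Qprt, an enzyme of NAD synthesis, gave 3.99 and 12.2 in head cells, against 83.97 and 51.7 in trunk cells, each below the median, so no fold is given (adjusted p = 0.023). C1qtnf3 passed without any one of the 4 arrays. Agtr2 missed the threshold without each of them (0.0868 to 0.216), Zic4 without head replicate 1, trunk replicate 1 or trunk replicate 2 (0.17, 0.159 and 0.142), and Qprt likewise (0.112, 0.173 and 0.0771).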

How the data were processed

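The deposited values are probe set intensities of an Affymetrix mouse array, made by the authors with MAS5 and Affymetrix Expression Console per the submitters' processing notes, which give no version. Whether a normalization came after MAS5 is not stated. Per the labels, sorted cells gave total RNA that was extracted with QIAzol and amplified. Of 22690 probe sets, 64 controls were left out, and the 20380 annotated to 1 gene were used (691 had several genes, 1555 none). Probe sets above the median of the array on at least 2 of 12 arrays were kept (11739). Each of 7722 genes was represented by its kept probe set of highest mean (2683 had several; no called gene had one of opposite sign).

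Log2 of the deposited intensity was tested with limma 3.58.1 in R 4.3.3: the model had 6 group means over 12 arrays and an intensity trend, the tests were two-sided, and p was adjusted over all genes by Benjamini-Hochberg. Degrees of freedom were 6 residual and 5.87 prior. The number of arrays limits the precision. The labels do not say whether equal replicate numbers share a source, so the main fit had no block. Replicate differences correlated at -0.0956 between head and trunk at E11.5, and at -0.299 to 0.172 over 15 pairs of groups. They were over 0.1 in 2 of these pairs. Such correlations cannot show whether samples were paired. The 35 gene lists (899 genes, 565 tested) were written from textbook knowledge, and the samples and lists were chosen with earlier results of these data known. Genes are named by a rule: the 15 largest and the 15 most negative differences among called genes with separate groups, members of the lists, and the regulators Tbx1, Isl1, Msc, Tcf21, Lhx2, Pax3 and Myf5. Others are marked. Alternatives changed the normalization, the filter, the offset, the probe set rule, the trend, the arrays used and a replicate block. Promoter windows come from RefSeq, GRCm38.p6.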

Additional observations from a re-analysis of the deposited data

How the results depend on the processing

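The 160 calls (55 higher and 105 lower in head cells) became 156 after quantile normalization, 158 after median centring, 157 with at least 4 arrays above the median, 184 with 32 added to the signal, 166 with the mean over probe sets, 133 without probe sets whose names carry a suffix for shared probes, 116 without the intensity trend and 153 with only the E10.5 and E11.5 arrays. Without a filter, 36 were higher and 132 were called in all. With only the 4 arrays at E11.5, 84 were called, 27 higher and 57 lower. Without both E10.5 replicate 1 arrays, 111 were called, 35 of them higher. Leaving out 1 of the 4 arrays at E11.5, which leaves a lone array assumed to vary like the other groups, gave 56 to 72 calls (19 to 30 higher, 26 to 53 lower), with 72 without head replicate 1, 62 without head replicate 2, 56 without trunk replicate 1 and 61 without trunk replicate 2. A replicate block, though the numbers share no known source, gave 143 calls (46 higher and 97 lower). Among the lists, with only the arrays at E11.5, 1 Notch, 1 imprinted and 2 dermomyotome genes were lower and 0 guidance genes higher by limma. Without the intensity trend, 1 gene was lower in each of the Notch, imprinted and IGF and PDGF lists. The causes of these shifts were not tested. Of 153 genes followed across the alternatives, which include the genes named with values here and others of the lists and of the calls, 91 were called; 24 of these kept their call in every alternative run for them, 67 lost it in at least 1, and 0 changed sign. Of the 62 not called, 24 passed in some alternative and 6 changed sign: Hbb-bh1 (-0.37 with the mean over probe sets) and, over the fits without 1 array, Hbb-bh1 (-1.42 to 1.499), Ebf3 (-0.11 to 0.38), Hbb-y (-0.65 to 0.16), Pax7 (-0.49 to 0.59), Actc1 (-0.11 to 0.20) and Hoxd1 (-0.22 to 0.42). The low end came without head replicate 1 for Hbb-bh1, without head replicate 2 for Ebf3 and Pax7, and without trunk replicate 2 for Actc1 and Hoxd1. Tcf21 passed in 5 of 16 alternatives (adjusted p = 0.00151 to 0.26). Signals below the median probe set give bounds and no measured fold.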

Other observations

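Some genes past the threshold lie outside the lists and the leading genes, and they were named after their values were seen. The 2 procollagen C-proteinase enhancers ran in opposite directions. Pcolce gave 1003 and 902 in head cells, against 2108 and 2965 in trunk cells (-1.39 ± 0.21, 2.63-fold lower, adjusted p = 0.00669), whereas Pcolce2 had a difference of 3.73. Fap, a surface protease of mesenchymal cells, gave 887 and 703 in head cells, against 2476 and 2670.2 in trunk cells (-1.70 ± 0.24, 3.26-fold lower, adjusted p = 0.00373), and the matrix protein gene Efemp1 gave 542 and 221 in head cells, against 2209 and 1257 in trunk cells (-2.27 ± 0.43, 4.81-fold, adjusted p = 0.0204). Fap passed without any one of the 4 arrays. Pcolce missed the threshold without head replicate 2 or trunk replicate 2 (0.0526 and 0.0663), and Efemp1 without head replicate 2 or trunk replicate 1 (0.164 and 0.167).

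Insulin-like signalling had an adaptor higher in head cells while the ligand Igf1 was lower. Irs1, which carries the signal of the insulin and IGF receptors, gave 6022 and 6745 in head cells, against 3886 and 4275 in trunk cells (0.64 ± 0.14, 1.56-fold higher, adjusted p = 0.0435), but it missed the threshold without each of the 4 arrays (0.0955 to 0.263). Ank1, an ankyrin that links the membrane and its calcium stores to the cytoskeleton, gave 1611 and 1304 in head cells, against 388 and 308 in trunk cells (2.07 ± 0.25, 4.19-fold higher, adjusted p = 0.00131) and passed without any one of the 4 arrays. Among transcription factors, Foxd1 gave 387 and 463 in head cells, against 1422 and 1597 in trunk cells (-1.83 ± 0.31, 3.56-fold lower, adjusted p = 0.0113), and Lmo2, known from blood and vessel formation, gave 363 and 294 in head cells, against 133 and 94.3 in trunk cells (1.54 ± 0.25, at least 2.70-fold higher, adjusted p = 0.00775). Foxd1 missed the threshold without head replicate 1, trunk replicate 1 or trunk replicate 2 (0.0759, 0.0632 and 0.0925), and Lmo2 without head replicate 1 or trunk replicate 2 (0.0705 and 0.0823). Lmo2 moved with the endothelial list (median 1.07), whose part in this difference was not tested.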
